A study of Mus musculus with 12 samples.

Results

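The genes described here are 10 mRNAs long used as examples of FMRP targets, *Map1b*, *Camk2a*, *App*, *Bsn*, *Pclo*, *Ank2*, *Nf1*, *Pcdh10*, *Sod1* and *Kif1a*. They were chosen by name, with earlier results of these data known. All 10 were among the 22592 genes tested, of 55421 listed. Their levels were read in poly(A) RNA-seq libraries of the mouse hippocampus, with 3 animals in each of 4 groups. The WT-Veh group held wild-type mice given the vehicle, and the KO-Veh group held *Fmr1* knockout mice given the vehicle. The WT-Nut3 and KO-Nut3 groups held mice of the same genotypes given Nutlin-3 at 10 mg/kg, an inhibitor of the ubiquitin ligase MDM2. Per the study's methods the injections were intraperitoneal, 5 in number and began at 2 months of age, and per the labels and methods tissue was taken at 6 months. The mice were on the C57B/L6 background per the methods. The study writes the genotypes as *Fmr1*-/y and *Fmr1*+/y littermates, and the labels give no sex or litter for the single animals. Each library carries the number of its animal, and each held between 17150820 and 20040482 reads counted on genes.

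FMRP is an RNA-binding protein of neurons that associates with polyribosomes and restrains the translation of many mRNAs of the synapse. Loss of FMRP from silencing of *FMR1* causes fragile X syndrome, and the *Fmr1* knockout mouse is its standard model. The mRNAs FMRP binds are known as long, abundant in brain and rich in synaptic and cytoskeletal proteins, and binding has been tied to short base words in the coding sequence. RNA-seq of whole tissue reads the amount of an mRNA and not its translation, and in whole tissue fewer cells of a type and less RNA per cell cannot be told apart. Each library is labelled with its own animal, and the p-values below measure the spread between these 12 animals.

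Library composition was read from lists of cell type markers before the genes were compared. Markers of hippocampal pyramidal and dentate granule neurons were present in every library. KO-Nut3 RH6 stood apart, with a mean Spearman correlation of 0.9755 with the other libraries, against 0.986 to 0.990 for each of the rest. Its summed level of CA pyramidal markers was 618 CPM (a gene's reads as counts-per-million of all reads on genes, scaled for library composition) against 822 to 1017 CPM elsewhere, and of dentate granule markers 580 CPM against 644 to 872 CPM. Its summed level of thalamus markers was 385 CPM against 116 to 184 CPM, with *Tcf7l2* at 32.7 CPM against 4.75 to 7.33 CPM. The oligodendrocyte sum was highest in the same library at 6433 CPM and lowest in WT-Veh RH2 at 3771 CPM. Markers of choroid plexus epithelium, led by *Ttr*, summed to 4846 CPM in WT-Nut3 RH9, 3638 in KO-Nut3 RH6, 428 in KO-Nut3 RH8 and 5184 in KO-Nut3 RH13, against 41 to 69 CPM in the other 8 libraries. The pan-neuronal sum had a narrower range, 5960 to 6603 CPM. Values for the FMRP targets are therefore given without KO-Nut3 RH6 where this library moved them most.

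**Figure D1:**
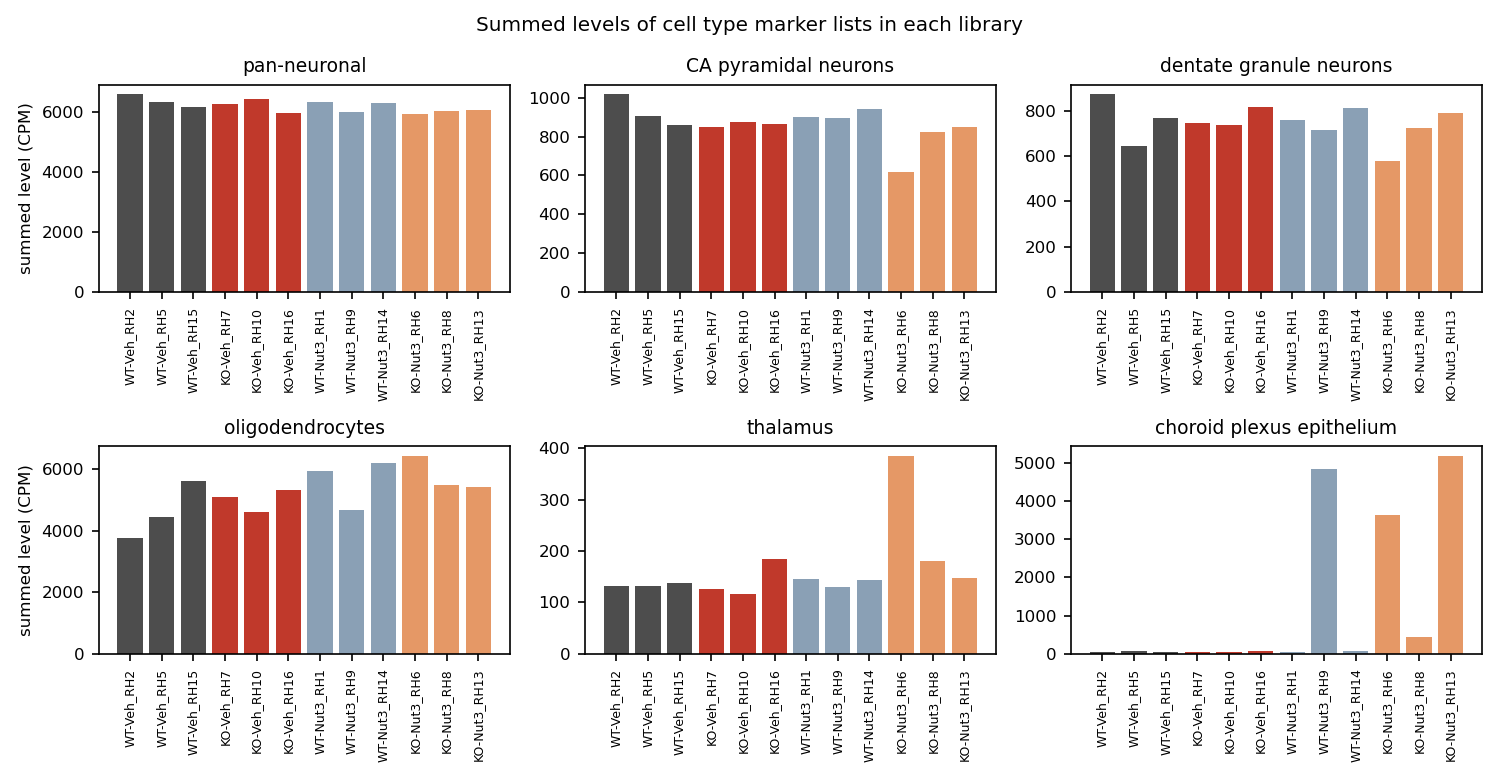
Summed CPM (vertical axis, 1 panel per marker list) in each of the 12 libraries, coloured by group. KO-Nut3 RH6 is lowest for CA pyramidal markers at 618 CPM and highest for thalamus markers at 385 CPM, and 4 libraries carry choroid plexus markers above 400 CPM.

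*Fmr1* itself was checked first. The gene, ENSMUSG00000000838, lies at chrX:68678541-68717963 on the plus strand of mm10. Its level was 79.5, 75.3 and 77.7 CPM in WT-Veh and 75.2, 74.0 and 78.3 CPM in WT-Nut3. It was 32.7, 32.5 and 37.3 CPM in KO-Veh and 30.6, 28.5 and 35.7 CPM in KO-Nut3. All 6 knockout libraries were below all 6 wild-type libraries, in keeping with the labels, and the knockout mean was 42.9% of wild type. The log2 fold change over both treatments was -1.22 (95% interval -1.34 to -1.10, adjusted p = 1.71e-08, edgeR quasi-likelihood test with Benjamini-Hochberg adjustment). Counts were made over the whole gene, so reads from an mRNA that encodes no FMRP are included.

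The 10 mRNAs differed widely in level. Divided by the length of their annotated exons, the mean over 12 libraries was highest for *Camk2a*, at 547 CPM per kb, followed by *Kif1a* at 135, *App* at 109.8 and *Map1b* at 82.1 CPM per kb. *Bsn* at 43.2, *Sod1* at 31.3, *Ank2* at 24.3 and *Pclo* at 16.1 CPM per kb came next. *Nf1* at 8.27 and *Pcdh10* at 7.60 CPM per kb were the lowest. Neighbours in this order had ranges over libraries that did not overlap, except *Bsn* with *Sod1* and *Nf1* with *Pcdh10*. Divided by coding length instead, *Camk2a* stayed first at 2784 CPM per kb, but the other 9 changed rank, with *Sod1* just below *App* at 269 and *Nf1* last at 15.4 CPM per kb. *Sod1* has the shortest coding sequence of the set, so its place depends on which length is used.

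Most of the targets are long mRNAs. The median coding length was 6383 bases against 1389 bases over 16104 protein-coding genes tested, and 6 of the 10 exceeded the 90th percentile of 3504 bases. *Camk2a*, at 1467 bases, was longer than 53.3% of all genes. The longest coding sequence was that of *Pclo* at 15204 bases and the shortest that of *Sod1* at 462 bases. The base words AGGA and TGGA, which have been tied to FMRP binding, were counted on the mRNA strand of the longest annotated coding sequence of each gene with overlaps allowed. They were not dense over the whole coding sequence, at a median of 17.2 per kb in the 10 genes and 16.3 per kb in all genes. The highest density was 21.6 per kb in *Sod1* and the lowest 14.3 per kb in *Nf1*, and none passed the 90th percentile. Per kb, the long mRNAs therefore held about as many of these words as other genes.

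Single windows of 30 bases were denser in some of the genes. The ones shown hold the most words of any such window within a single exon of the coding sequence of the gene named. Capitals mark AGGA and TGGA in the 30-base windows.
Kif1a, chr1:93051514-93051543, minus strand: ggAGGAGGAGGAGGAGGAGGAGGAGGAGGA
App, chr16:85056419-85056448, minus strand: tgTGGAGGAtggggacgaggTGGAGGAGGA
Map1b, chr13:99434521-99434550, minus strand: taaatctgtgAGGAAGGAgtccaAGGAGGA
Bsn, chr9:108115388-108115417, minus strand: caccatcgAGGActcctccgAGGAGGAGGA
All 4 are exonic coding sequence in mm10. The *Kif1a* window held 9 words, a density reached in 13 genes (0.0807% of 16104). The *App* window held 5 words, reached in 5.43% of genes, and the *Map1b* and *Bsn* windows 4 words each, reached in 20.4%. The densest window of *Nf1* held 3 words, reached in 64.8% of genes, and that of *Sod1* 2 words, reached in 95.8%. Windows of the targets lay within a single exon, while the shares of all genes also counted windows across exon joins. A match says only that these letters are present.

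Of the cytoskeleton and transport genes, *Map1b* had the smallest p-values of the 10 for genotype over both treatments. It encodes a microtubule-associated protein of growing axons and synapses (ENSMUSG00000052727, chr13:99421446-99516540, minus strand). Its level was 1441, 1419 and 1327 CPM in WT-Veh (1395 ± 60.6, SD, n = 3) and 1251, 1217 and 1236 CPM in KO-Veh (1234 ± 16.9, n = 3). It was 1449, 1275 and 1382 CPM in WT-Nut3 (1369 ± 87.7, n = 3) and 1218, 1203 and 1189 CPM in KO-Nut3 (1203 ± 14.5, n = 3). The 6 knockout libraries, 1189 to 1251 CPM, all lay below the 6 wild-type libraries, 1275 to 1449 CPM, and their mean was 88.2% of the wild-type mean. In edgeR the log2 fold change between the vehicle groups was -0.18 (SE 0.0526, adjusted p = 0.608) and between the Nutlin-3 groups -0.19 (SE 0.0772, adjusted p = 0.928). Over both treatments it was -0.18 (95% interval -0.27 to -0.09 and adjusted p = 0.337 in edgeR), which did not pass the adjusted threshold of 0.05. DESeq2 gave the same fold change with an adjusted p of 0.000786, and over 18 alternative settings the adjusted p ran from 0.000786 to 0.718 with the fold change between -0.20 and -0.16. The 8 libraries with little *Ttr* hold no KO-Nut3 library, so a fit on them compares genotype among vehicle mice only, and in it the fold change was -0.17 (adjusted p = 0.629 in edgeR).

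*Kif1a* and *Ank2* had smaller genotype differences, which did not pass the test. *Kif1a* encodes a kinesin that carries synaptic vesicle precursors along axons (ENSMUSG00000014602, chr1:93015464-93101951, minus strand). Its level was 1339, 1378 and 1243 CPM in WT-Veh, 1282, 1201 and 1198 in KO-Veh, 1421, 1166 and 1232 in WT-Nut3 and 1265, 1217 and 1176 in KO-Nut3. Both genotypes overlapped in each treatment, and the fold change over both treatments was -0.08 (log2, adjusted p = 0.713, edgeR). *Ank2* encodes ankyrin-B, which ties membrane proteins to spectrin (ENSMUSG00000032826, chr3:126921612-127499350, minus strand). It stood at 909, 892 and 866 CPM in WT-Veh, 826, 826 and 883 in KO-Veh, 909, 803 and 846 in WT-Nut3 and 794, 829 and 817 in KO-Nut3. These groups overlapped too, with a log2 fold change of -0.07 over both treatments (adjusted p = 0.683, edgeR).

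**Figure D2:**
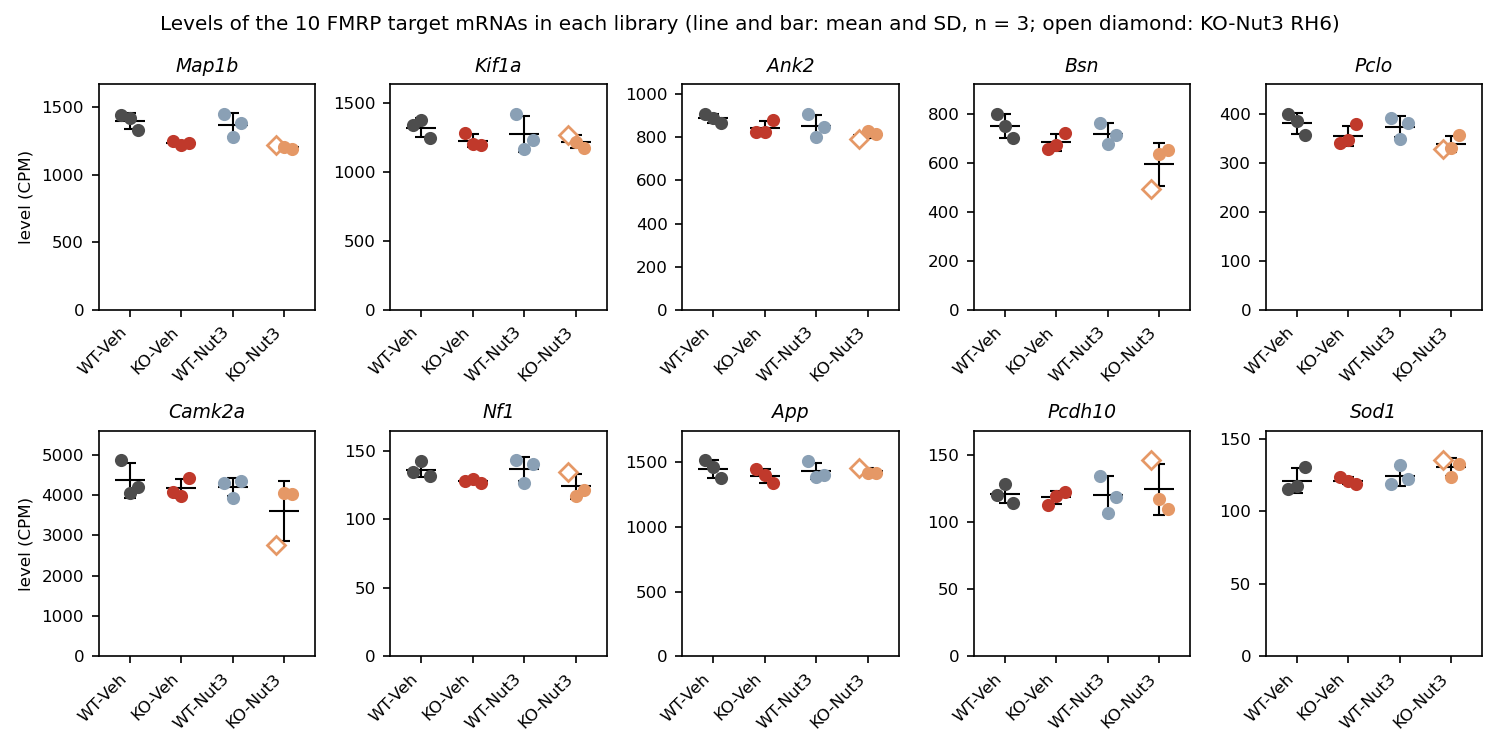
Level in CPM (vertical axis from 0, 1 panel per gene) in each of the 12 libraries, with the mean and SD of each group of 3. The open diamond is KO-Nut3 RH6, which is far below the other KO libraries for Camk2a at 2754 CPM and above them for Pcdh10 at 146 CPM, and the 6 KO points of Map1b lie below the 6 WT points.

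*Bsn* and *Pclo* encode Bassoon and Piccolo, a pair of very large scaffold proteins of the presynaptic active zone. *Bsn* (ENSMUSG00000032589, chr9:108096022-108190384, minus strand) was at 802, 750.4 and 702 CPM in WT-Veh and 658, 675 and 725 CPM in KO-Veh. It was at 766, 677 and 717 CPM in WT-Nut3 and 495, 638 and 653 CPM in KO-Nut3. In 5 of the 6 knockout libraries the level was below the lowest wild-type library, and the means were 641 ± 77.4 CPM in the knockout and 736 ± 45.6 CPM in wild type (SD, n = 6 each). The knockout differed from wild type by a log2 fold change of -0.13 with the vehicle (adjusted p = 0.706), -0.28 with Nutlin-3 (adjusted p = 0.928) and -0.20 over both treatments (95% interval -0.34 to -0.06, adjusted p = 0.443), all in edgeR. Without KO-Nut3 RH6 the last 2 values were -0.16 and -0.15. Its adjusted p over both treatments was 0.047 in edgeR where every gene with a count was tested and 0.665% passed (239 of 35930).

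*Pclo* (ENSMUSG00000061601, chr5:14514918-14863459, plus strand) was at 399.8, 385 and 356 CPM in WT-Veh, 340.2, 346 and 378 in KO-Veh, 391, 349 and 381 in WT-Nut3 and 328, 330.1 and 356 in KO-Nut3. In 4 of the 6 knockout libraries it was below the lowest wild-type library. Its log2 fold change over both treatments was -0.12 (adjusted p = 0.4997, edgeR). About 4.12% of its exon bases are shared with the opposite-strand genes *Gm26918* and *Gm26954*. Reads were not separated by strand and ambiguous reads were left out, so reads on these bases may be missing from its level.

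Of the signalling genes, *Camk2a* and *Nf1* behaved differently across libraries. *Camk2a* encodes the alpha subunit of CaMKII, a kinase of synaptic plasticity whose mRNA is carried into dendrites (ENSMUSG00000024617). Its level was 4861, 4041 and 4211 CPM in WT-Veh, 4086, 3986 and 4421 in KO-Veh, 4289, 3933 and 4343 in WT-Nut3 and 2754, 4052 and 4036 in KO-Nut3. The low value is KO-Nut3 RH6, the library low in CA pyramidal markers, and the others of the 4 groups overlapped. Between the Nutlin-3 groups the log2 fold change was -0.22 with this library and -0.05 without it (adjusted p = 0.928 with it, edgeR), and over both treatments -0.14 (adjusted p = 0.711) with it and -0.06 without it. *Nf1* encodes neurofibromin, which switches off Ras (ENSMUSG00000020716, chr11:79339693-79581612, plus strand). It was at 135, 142 and 131 CPM in WT-Veh and 128, 129 and 126 CPM in KO-Veh, with no overlap, and at 143, 126 and 140.2 CPM in WT-Nut3 and 134, 117 and 121 CPM in KO-Nut3, with overlap through the 134 CPM of KO-Nut3 RH6. Between the Nutlin-3 groups its log2 fold change was -0.14 with this library and -0.20 without it. Over both treatments its log2 fold change was -0.11 (adjusted p = 0.515, edgeR).

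The 3 remaining genes had no genotype difference beyond their spread. *App* encodes the amyloid precursor protein (ENSMUSG00000022892, chr16:84949685-85173766, minus strand) and had the smallest SD of log2 CPM across libraries of the set. Its level was 1515, 1462 and 1377 CPM in WT-Veh, 1446, 1404 and 1339 in KO-Veh, 1507, 1389 and 1404 in WT-Nut3 and 1457, 1418 and 1414 in KO-Nut3. *Pcdh10* encodes a protocadherin, a cell adhesion protein of the synapse (ENSMUSG00000049100, chr3:45378398-45435623, plus strand). It was at 119.9, 128 and 114 CPM in WT-Veh, 113, 119.6 and 122 in KO-Veh, 134, 107 and 119 in WT-Nut3 and 146, 117 and 109 in KO-Nut3. The value of 146 CPM is again KO-Nut3 RH6, and without it the log2 fold change over both treatments went from 0.01 to -0.06. *Sod1* encodes the cytosolic copper and zinc superoxide dismutase (ENSMUSG00000022982, chr16:90220754-90226329, plus strand). It was at 115, 117 and 131 CPM in WT-Veh, 124, 121 and 119 in KO-Veh, 119, 132 and 122 in WT-Nut3 and 135, 124 and 133 in KO-Nut3. Over both treatments the log2 fold changes were -0.03 for *App* (adjusted p = 0.896), 0.01 for *Pcdh10* (adjusted p = 0.983) and 0.03 for *Sod1* (adjusted p = 0.882), all in edgeR, and that of *Sod1* was 0.016 without KO-Nut3 RH6.

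Taking the 10 genes as a list, the loss of *Fmr1* came with slightly lower levels of most of them, and no single one passed in edgeR at the count filter used. In KO-Veh against WT-Veh all 10 log2 fold changes were below 0 (median -0.08), beside 51.0% of the 22592 genes tested (median -0.004). That of *Sod1* was -0.001 and turned above 0 in DESeq2. In the same comparison pan-neuronal markers were lower in 10 of 10 (median -0.04) and markers of oligodendrocyte precursors in 6 of 6 (-0.12). CA pyramidal markers were lower in 6 of 10 (-0.05) and dentate granule markers in 4 of 10 (0.06). Markers of interneurons were higher in 7 of 8 (0.11) and of oligodendrocytes in 9 of 10 (0.12). None of the 10 targets passed the adjusted threshold, beside 0.0177% of all genes (4 genes), nor in DESeq2, beside 0.12%. *Map1b* alone had an unadjusted p under 0.05, beside 4.12% of all genes that had one and were lower. *Map1b* and *Nf1* were lower in the knockout with no overlap between the groups of 3, which 6.46% of all genes were. In KO-Nut3 against WT-Nut3, 8 of 10 were lower (median -0.11), beside 48.9% of all genes (median 0.005). Between these groups CA pyramidal markers were lower in 9 of 10 (median -0.29) and dentate granule markers in 9 of 10 (-0.16), and markers of thalamus were higher in 7 of 8 (0.63) and of meningeal fibroblasts in 10 of 10 (1.27). Again 0 of 10 passed, beside 0.00443% of all genes (*Fmr1* alone), and 0 of 10 in DESeq2, beside 0.031%. *Map1b* and *Bsn* had an unadjusted p under 0.05 and were lower, as were 2.08% of all genes. Their knockout libraries lay wholly below the wild-type libraries, as did those of 5.35% of all genes.

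Over 12 alternative settings the number of the 10 that were lower ran from 9 to 10 with the vehicle (median -0.10 to -0.06) and from 6 to 9 with Nutlin-3 (median -0.16 to -0.07). The number with an unadjusted p under 0.05 ran from 1 to 4 with the vehicle and from 0 to 4 with Nutlin-3.

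The additive fit of genotype over both treatments used all 12 libraries. In it 8 of 10 were lower, with a median of -0.10, beside 48.1% of all genes and a median of 0.006, and over 18 alternative settings 8 to 9 were lower. *Map1b*, *Bsn*, *Pclo* and *Nf1* had an unadjusted p under 0.05, all lower in the knockout, as were 4.36% of all genes. The number of the 10 with an unadjusted p under 0.05 ran from 1 to 6 over the 18 alternative settings. No member passed in edgeR at the same filter, where 0.00443% of all genes did, while *Map1b* passed in DESeq2, where 46 of 22522 genes (0.204%) did. *Map1b* was the only one with no overlap of the 6 knockout and 6 wild-type libraries, beside 0.359% of all genes. Lower in each of the separate vehicle and Nutlin-3 comparisons, which share no library, were 8 of the 10, beside 27.2% of all genes and 29.4% of genes at 10 CPM or more. The share was as high for some other lists, at 8 of 10 pan-neuronal markers, 5 of 6 markers of oligodendrocyte precursors and 10 of 12 genes of microtubules and axonal transport. The pan-neuronal markers were lower in the knockout in 10 of 10, with a median of -0.04 over both treatments, CA pyramidal markers in 8 of 10 with a median of -0.15, and dentate granule markers in 9 of 10 with a median of -0.05. Higher in the knockout were oligodendrocyte markers in 9 of 10 (median 0.09), thalamus in 7 of 8 (0.37), meningeal fibroblasts in 10 of 10 (0.38), ependyma in 8 of 8 (0.59) and choroid plexus in 15 of 15 (0.76). With the vehicle alone, markers of mural cells were lower in 8 of 8 (median -0.33), neocortex in 7 of 8 (-0.16) and meningeal fibroblasts in 9 of 10 (-0.59), while ependyma was higher in 8 of 8 (0.71) and thalamus in 3 of 8 (-0.07). The part of these markers in the values of the FMRP targets was not tested.

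**Figure D3:**
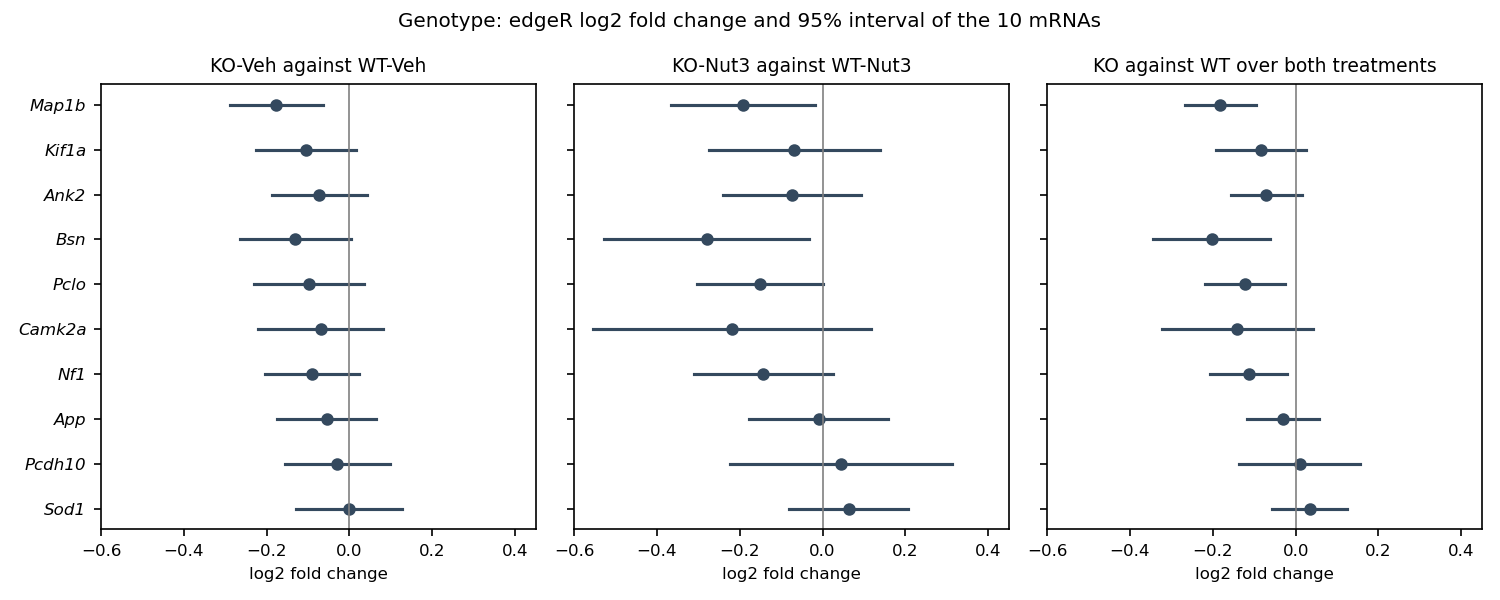
edgeR log2 fold change (horizontal axis) with its 95% interval for each of the 10 genes, knockout against wild type with the vehicle (left), with Nutlin-3 (middle) and over both treatments (right). Intervals of Map1b lie below 0 in all 3 panels, and those of Sod1, Pcdh10 and App span 0.

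Nutlin-3 was compared with the vehicle in each genotype, months after the injections had ended. In the knockout, 7 of 10 targets were lower after Nutlin-3 (median -0.04), beside 49.2% of all genes (median 0.003) and 59.5% of genes at 10 CPM or more (median -0.02). Over 12 alternative settings the number ran from 6 to 8 and the median from -0.05 to -0.03. None of the 10 passed in edgeR, beside 0.199% of all genes (45 genes, 44 of them higher), or in DESeq2, beside 1.08%. None had an unadjusted p under 0.05, beside 7.6% of all genes, and 0 to 2 did over the 12 alternative settings. *Bsn*, at -0.21 (95% interval -0.44 to 0.02, adjusted p = 0.69, edgeR), and *Camk2a*, at -0.21 (95% interval -0.51 to 0.09, adjusted p = 0.756), had the lowest values. Without KO-Nut3 RH6 they were -0.09 and -0.04, *Nf1* went from -0.05 to -0.10, *Kif1a* from -0.01 to -0.04 and *Pcdh10* from 0.07 to -0.06. CA pyramidal markers were lower after Nutlin-3 in 9 of 10 (median -0.19) and dentate granule markers in 9 of 10 (-0.13). Markers of oligodendrocytes were higher in 10 of 10 (0.21), of meningeal fibroblasts in 9 of 10 (1.37) and of choroid plexus in 15 of 15 (4.48), and their part in the values of the targets was not tested. *Bsn* was the only target whose KO-Nut3 libraries all lay below the KO-Veh libraries, beside 5.44% of all genes. *Sod1* had the highest value, 0.11 (95% interval -0.03 to 0.24, adjusted p = 0.733, edgeR). *Map1b* was at -0.04 (95% interval -0.17 to 0.09, adjusted p = 0.901).

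In wild-type mice the log2 fold changes after Nutlin-3 lay between -0.06 and 0.04, with an adjusted p of 0.998 for each in edgeR. Of the 10 targets 8 were lower (median -0.02), beside 49.9% of all genes, and 4 to 9 over 12 alternative settings. None passed, beside 0% of all genes in edgeR and DESeq2, and none had an unadjusted p under 0.05, beside 3.17% of all genes (717 genes). The difference between the genotypes in their response to Nutlin-3 was tested as an interaction. Its estimates ran from -0.14 for *Camk2a* and *Bsn* to 0.08 for *Pcdh10*, with adjusted p of 0.994 to 0.998 in edgeR. Without KO-Nut3 RH6 these 3 were 0.013, -0.033 and -0.059, and *Nf1* went from -0.05 to -0.11. None of the 10 passed, beside 0% of all genes in edgeR, and none had an unadjusted p under 0.05, beside 4.17% of all genes (942 genes). In DESeq2 1 gene passed (0.00443%), which was not one of the 10. The interval for *Map1b* was -0.19 to 0.17, and that for *Camk2a* -0.51 to 0.23.

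**Figure D4:**
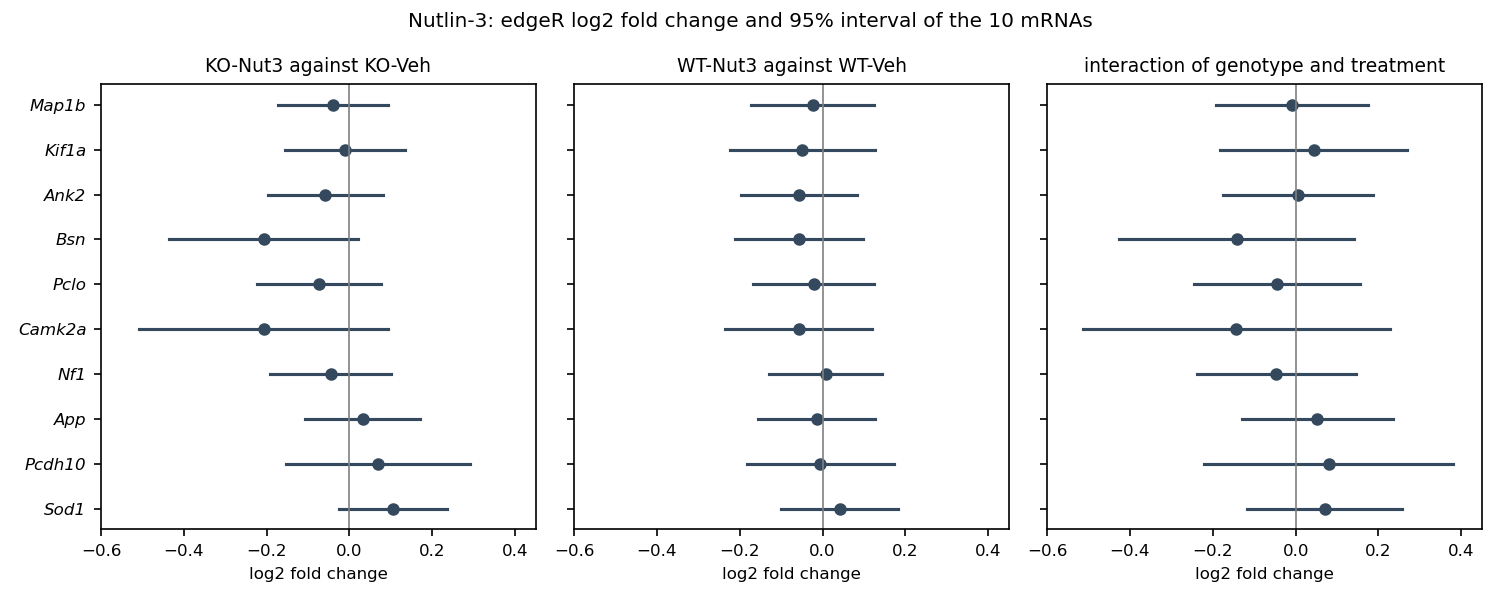
edgeR log2 fold change (horizontal axis) with its 95% interval for each of the 10 genes, in KO-Nut3 against KO-Veh, WT-Nut3 against WT-Veh, and the interaction of genotype and treatment. All 30 intervals include 0.

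A further 47 mRNAs known to be bound by FMRP in brain were taken as a related list. With the vehicle 43 of 47 were lower in the knockout, with Nutlin-3 45, and over both treatments 46 (median -0.10). Over 12 alternative settings 33 to 44 were lower with the vehicle (median -0.11 to -0.05) and 42 to 46 with Nutlin-3 (median -0.15 to -0.09). Between groups of the same genotype, 41 of 47 were lower in KO-Nut3 against KO-Veh (median -0.09) and 40 in WT-Nut3 against WT-Veh (median -0.02). Of all genes 49.2% and 49.9% were lower there. Over 12 alternative settings these counts of the list ran from 36 to 42 and from 20 to 44, so the lean was not particular to genotype. None passed in edgeR at the count filter used, and over both treatments 21 of 47 had an unadjusted p under 0.05, all of them lower, beside 4.36% of all genes. The number with an unadjusted p under 0.05 ran from 10 to 26 over 18 alternative settings. In DESeq2, where 0.204% of all genes passed over both treatments, and in edgeR with every gene tested, where 0.665% did, *Map1a*, *Dlgap3*, *Shank1* and *Shank3* passed. *Dlgap3* also passed in edgeR with a term for animal numbers (up to RH8, or from RH9) and without KO-Nut3 RH6, where 10 genes passed in all under each. Lower in both separate genotype comparisons were 41 of 47 (87.2%), beside 27.2% of all genes. Over 18 alternative settings the number lower over both treatments was 41 to 46 and the median -0.13 to -0.07. The lowest count, 41, came from the fit on the 8 libraries with little *Ttr*, which holds no KO-Nut3 library.

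Of these bound mRNAs, the postsynaptic scaffold genes *Dlgap3* and *Shank1* had the smallest unadjusted p in KO-Veh against WT-Veh. *Dlgap3* ranged from 339.7 to 430.4 CPM in wild type and from 268 to 341 CPM in the knockout, with a log2 fold change of -0.33 over both treatments (SE 0.0519, adjusted p = 0.0737, edgeR). With the vehicle alone it was -0.29 (adjusted p = 0.405, edgeR), and it passed there in DESeq2 and with every gene tested, where 27 and 272 genes passed in all. *Shank1* ranged from 746 to 883 CPM in wild type and from 625 to 717 CPM in the knockout, with a log2 fold change of -0.26 (adjusted p = 0.181, edgeR). The groups of 6 did not overlap for *Shank1*, while for *Dlgap3* KO-Veh RH7 at 341 CPM lay just above WT-Nut3 RH9 at 339.7 CPM. The only bound mRNA higher in the knockout over both treatments was *Arc*, an immediate early gene whose level follows neuronal activity, at a log2 fold change of 0.26 (adjusted p = 0.754, edgeR). *Arc* was at 91.7, 153 and 207 CPM in WT-Veh and 201, 232 and 270 CPM in KO-Veh, then 158, 163 and 184 CPM in WT-Nut3 and 155, 187 and 123 CPM in KO-Nut3, and its interaction of genotype and treatment was -0.76 on the log2 scale (adjusted p = 0.994, edgeR). Over the alternative settings its value over both treatments ran from 0.10 to 0.64. With every gene tested it passed in edgeR in KO-Veh against WT-Veh and in the interaction. There 272 and 291 genes passed in all, against 4 and 0 at the count filter used. In KO-Nut3 against KO-Veh *Arc* passed in DESeq2, with every gene tested, and without KO-Nut3 RH8. There 244, 544 and 266 genes passed in all, against 45 in the main edgeR fit. *Arc* was picked out after its values were seen.

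Coding length moved with the genotype difference across all genes. Among genes at 10 CPM or more, the median log2 fold change over both treatments was 0.02 for coding sequences up to 1 kb, 0.01 for 1 to 2 kb, -0.01 for 2 to 4 kb, -0.03 for 4 to 7 kb and -0.04 over 7 kb. The 46 mRNAs of the FMRP-bound list at 10 CPM or more had lower medians than the other genes in each class that held any. Their medians were -0.08 for 1 to 2 kb (n = 5), -0.10 for 2 to 4 kb (n = 13), -0.11 for 4 to 7 kb (n = 14) and -0.11 over 7 kb (n = 14), against 0.01, -0.01, -0.03 and -0.04 for the other genes. Within the classes from 2 kb upward all 41 were lower, beside 56.6%, 59.8% and 69.3% of the other genes. The other genes were not matched to the list by cell type. Over both treatments pan-neuronal markers were lower in 10 of 10 (median -0.04) and oligodendrocyte markers higher in 9 of 10 (0.09). The part of cell make-up in the difference between the list and the other genes was not tested.

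**Figure D5:**
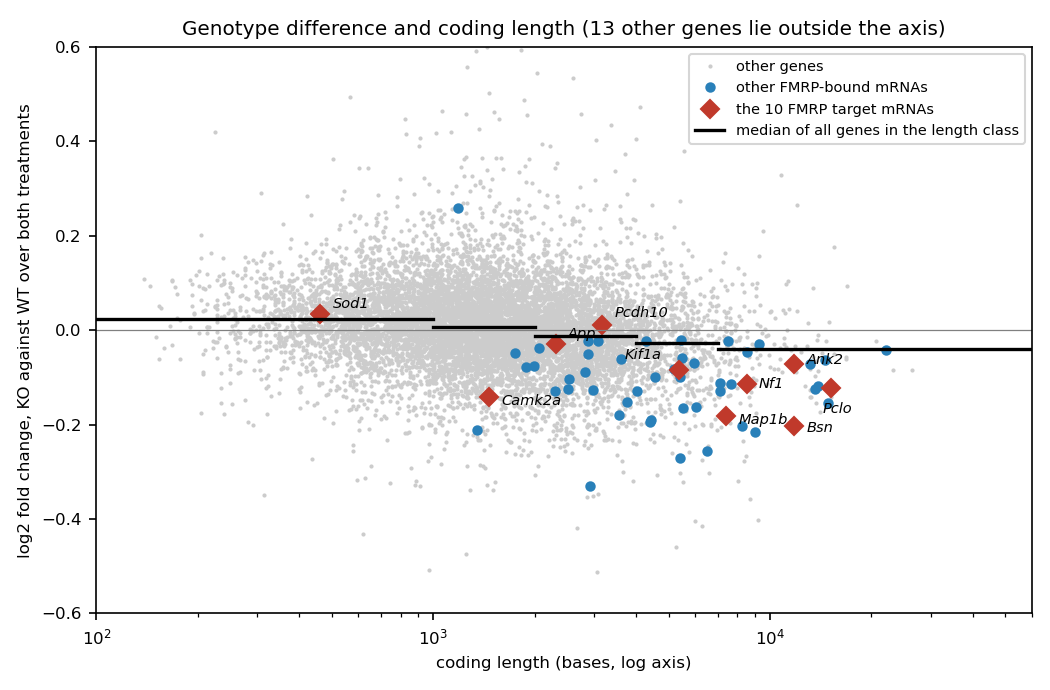
log2 fold change of KO against WT over both treatments (vertical axis) against coding length in bases (horizontal log axis) for protein-coding genes at 10 CPM or more. Red diamonds are the 10 targets, blue points the other FMRP-bound mRNAs and black bars the median of each length class, which goes from 0.02 in the shortest to -0.04 in the longest.

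Relatives of each target by role were read from lists of 5 to 12 genes, several of which are also among the 47. In KO-Veh against WT-Veh none passed in edgeR at the count filter used, while with every gene tested *Map1a* (adjusted p = 0.026) and *Pcdh9* (adjusted p = 0.0267) did. With every gene tested 272 genes passed in all, against 4 at the count filter used. Of the genes of microtubules and axonal transport 10 of 12 were lower, led by *Map1a*, a close relative of *Map1b*, at -0.23 (adjusted p = 0.608), and the dynein heavy chain *Dync1h1* at -0.11 (adjusted p = 0.745). Of the ankyrins and spectrins 5 of 6 were lower, with *Sptbn1* at -0.13 (adjusted p = 0.673, edgeR). Of the active zone genes 2 of 8 were lower, and 1 to 5 over the alternative settings, with *Unc13b* at -0.14 (adjusted p = 0.649) and *Erc1* at 0.07 (adjusted p = 0.839, edgeR). All 5 genes of the CaMKII family were lower here and 2 of 5 over both treatments, with *Camk2g* and *Camk2n1* at -0.07 each (adjusted p = 0.846 and 0.879, edgeR). The number lower here ran from 3 to 5 over 12 alternative settings. Of the genes that control Ras 6 of 10 were lower, and 4 to 7 over the alternative settings, with *Rasal1* at -0.16 (adjusted p = 0.668) and *Nras* at 0.17 (adjusted p = 0.740, edgeR).

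Of the relatives and processing enzymes of *App* 6 of 8 were lower, with the secretase subunit *Ncstn* at -0.08 (adjusted p = 0.807, edgeR). Of the protocadherins 6 of 8 were lower, with *Pcdh9* at -0.25 (adjusted p = 0.468) and *Pcdh7* at -0.24 (adjusted p = 0.594, edgeR), while *Pcdh10* was at -0.03. Over 12 alternative settings 3 to 8 protocadherins were lower, with a median from -0.12 to 0.0075. Of the antioxidant enzymes 3 of 8 were lower, with *Sod3* at -0.30 (adjusted p = 0.698) and *Gpx4* at 0.09 (adjusted p = 0.775, edgeR). Over both treatments the antioxidant enzymes were higher in the knockout in 8 of 8 (median 0.07) and the active zone genes lower in 8 of 8 (median -0.02). Over 18 alternative settings the number of active zone genes lower ran from 2 to 8 and their median from -0.06 to 0.013.

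*Sod3*, the extracellular superoxide dismutase, was the only relative that passed the threshold in any of the 6 comparisons. It rose in KO-Nut3 against KO-Veh by a log2 fold change of 0.96 (SE 0.143, adjusted p = 0.0377, edgeR). Its level was 7.59, 7.89 and 9.68 CPM in KO-Veh and 17.3, 14 and 17.8 CPM in KO-Nut3, against 10.2, 11.1 and 9.58 CPM in WT-Veh and 8.47, 16.8 and 10.5 CPM in WT-Nut3. The 4 libraries at 14 CPM and above are the 4 that carry choroid plexus markers, and the part of these markers in the difference was not tested. The adjusted p was 0.298 with all 12 libraries in the fit. Leaving out RH7, RH10 or RH16 of the KO-Veh group gave 0.300, 0.384 and 0.0879, and leaving out RH13 of the KO-Nut3 group gave 0.0872, and a term for animal numbers gave 0.0519, all in edgeR.

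Across the 12 libraries the targets varied to different degrees. The SD of log2 CPM was 0.0524 for *App*, smaller than in all but 5.62% of 10267 genes at 10 CPM or more, and 0.0686 for *Ank2* (16.7%). It was 0.108 for *Map1b* (51.5%), 0.177 for *Bsn* (84.9%) and 0.195 for *Camk2a* (88.5%), against a median of 0.106 over all these genes. Over all 12 libraries *Bsn* and *Camk2a* thus varied most, but both were lowest in KO-Nut3 RH6, at 495 and 2754 CPM. The order of these SDs without that library was not computed. *Bsn* and *Camk2a* varied together, with a Pearson r of 0.93 over 12 libraries and 0.75 without KO-Nut3 RH6. For *Bsn* with *Pclo* r was 0.85 over 12 libraries and 0.95 without that library, for *Pclo* with *Ank2* 0.87 and 0.84, and for *Map1b* with *Nf1* 0.82 and 0.90. *Sod1* had a negative r with each of the other 9 over the 12 libraries. All of these points share their libraries, groups and tissue make-up, so the correlations are descriptions.

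Genes whose log2 level was most like that of each target over the 12 libraries were named by Pearson r among genes at 10 CPM or more. For *Map1b* these were *Ubqln4*, *Shank1* and *Fry*, each at 0.95. For *Camk2a* they were *Crtc1* at 0.97, *Synpo* and *Kalrn*, and for *Bsn* *Sipa1l1* at 0.98 and *B230334C09Rik*. For *Pclo* they were *Myt1l* at 0.95, *Aff3* and *Dop1b*, for *Ank2* *Fmn2*, *Hcfc1* and *Sptbn1*, and for *Kif1a* *Smarcc2*, *Spock2* and *Apba1*. For *Nf1* they were *Lmtk2*, *Iqsec3* and *Ttbk1*, for *App* *Spata7* at 0.96, *Abcg1* and *Atp9a*, for *Pcdh10* *Fnbp4*, *Hecw1* and *Chga*, and for *Sod1* *Adipor1*, *Cd164* and *Ctsl*.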

How the data were processed

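Hippocampal poly(A) RNA of 12 mice was sequenced (single read per the labels, paired-end per the study's methods), and the authors aligned the reads with STAR to mm10 and deposited raw counts per gene and library. The version and annotation were not given in the sources used here. Read shares per strand were near 50%, so counts without strand were used. Libraries held 17150820 to 20040482 counts on genes. They made up 77.4% to 78.8% of all reads, and rows for unmapped, multimapped, ambiguous and unassigned reads were left out. A table of the whole series, whose 12 columns carry codes in place of library names, was not used. Genes with more than 20 counts over the 12 libraries were tested (22592 of 55421), each pair on its own 6 libraries, and the additive fit and interaction on all 12, by the edgeR quasi-likelihood test with TMM factors and Benjamini-Hochberg adjustment (edgeR 4.0.16, limma 3.58.1, R 4.3.3). CPM values use TMM factors, and a prior count of 1 was added for correlations of log2 values. DESeq2 1.42.0 served as an alternative test. Python 3.11.15, pandas 2.3.3 and matplotlib 3.10.9 were used for summaries and plots.

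Gene positions, lengths and sequences came from the GENCODE annotation of the same build, and all 246 genes of the lists matched by symbol. The 10 genes, the related lists and the marker lists were chosen with earlier results of these data known, so they give no independent evidence. All 10 targets and *Fmr1* were named, with every gene of a related list past the threshold (up to 5), the 2 of each list with the smallest unadjusted p in KO-Veh against WT-Veh, and the 3 most alike genes per target. Exceptions were picked out after their values were seen (*Arc*, and *Shank3* and *Map1a* among genes past the threshold in DESeq2). A few genes and 1 sequence these rules select are not reported here. The scripts were tested on simulated data. Alternatives were another test, scaling factor, count filter and set of libraries, a term for animal numbers and leaving out each library. A fit on only the 8 libraries at or under 100 CPM of *Ttr*, none of them KO-Nut3, was added after seeing the data. Animal numbers are unique and pair no animals.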

Additional observations from a re-analysis of the deposited data

Results flagged for a closer look

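Among the 6 knockout libraries, *Camk2a* in KO-Nut3 RH6 was at 2754 CPM, and its gap to the next library was 0.739 of the whole range, above the 95% critical value of Dixon's test for 6 values. *Pcdh10* in the same library was at 146 CPM, with a gap of 0.646 of the range. Of 22 groups of values examined these 2 exceeded it, and chance passes about 1 in 20. The same library had 618 CPM of CA pyramidal markers against 822 to 1017 CPM elsewhere and 385 CPM of thalamus markers against 116 to 184 CPM, and the part of these markers in the values of the 2 genes was not tested.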

How the results depend on the processing

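No member of the 10 passed the threshold in edgeR under any alternative run, except *Bsn* over both treatments where every gene with a count was tested (1 of 10), and in DESeq2 *Map1b* over both treatments (1 of 10). *Map1b* was lower in the knockout in each genotype comparison under every alternative run. The number of genes past the threshold in all moved far more. In DESeq2 it was 27 for KO-Veh against WT-Veh, 7 for KO-Nut3 against WT-Nut3, 244 for KO-Nut3 against KO-Veh, 46 over both treatments and 1 for the interaction. With every gene tested that had at least 1 count it was 272, 38, 544, 239 and 291 in the same order, and 249 for WT-Nut3 against WT-Veh. With all 12 libraries in the fit it was 1 for KO-Veh against WT-Veh and 0 for KO-Nut3 against KO-Veh. With a term for animal numbers (up to RH8, or from RH9) it was 21 for KO-Veh against WT-Veh, 20 for KO-Nut3 against KO-Veh, 11 for WT-Nut3 against WT-Veh and 10 over both treatments. The cause of these shifts was not tested.

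With each library left out in turn the count was 2 to 11 for KO-Veh against WT-Veh (2 without KO-Veh RH7 or RH10, 11 without WT-Veh RH15), and 0 to 7 for KO-Nut3 against WT-Nut3 (0 without WT-Nut3 RH14, where *Fmr1* had an adjusted p of 0.099 in edgeR, 2 without RH1 and 7 without RH9). It was 6 to 266 for KO-Nut3 against KO-Veh (6 without KO-Veh RH7 or RH10, 7 without RH16, 266 without KO-Nut3 RH8), 0 to 1 for WT-Nut3 against WT-Veh and for the interaction (1 without WT-Nut3 RH1), and 1 to 10 over both treatments (10 without KO-Nut3 RH6, 2 without RH13 or WT-Nut3 RH9). Members past the threshold stayed at 0 in these.

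Signs turned mainly for log2 fold changes near 0. In KO-Veh against WT-Veh *Sod1* was at 0.000795 in DESeq2, 0.000843 with RLE size factors and 0.00344 with every gene. With the term for animal numbers, *Pcdh10* was at -0.045 in KO-Nut3 against WT-Nut3. With it *Map1b*, *App*, *Pclo*, *Pcdh10*, *Sod1* and *Kif1a* were at 0.013, 0.022, 0.017, 0.052, -0.00209 and 0.00913 in WT-Nut3 against WT-Veh, and *App*, *Ank2*, *Pcdh10* and *Kif1a* at -0.000899, -0.018, -0.014 and -0.045 in the interaction. The interaction of *Ank2* was -0.00165 in DESeq2, -0.00164 with RLE factors and -0.012 with every gene. *Pcdh10* was -0.023 in the 8 libraries with little *Ttr*, which hold no KO-Nut3 library and compare genotype among vehicle mice only. With each library left out, ranges that crossed 0 in KO-Veh against WT-Veh were -0.13 to 0.013 for *Camk2a*, -0.061 to 0.015 for *Pcdh10* and -0.035 to 0.064 for *Sod1*. Between the Nutlin-3 groups they were -0.033 to 0.029 for *App*, -0.083 to 0.14 for *Pcdh10* and -0.13 to 0.019 for *Kif1a*, in KO-Nut3 against KO-Veh -0.061 to 0.15 for *Pcdh10* and -0.037 to 0.0199 for *Kif1a*, and over both treatments -0.055 to 0.045 for *Pcdh10*. In WT-Nut3 against WT-Veh they were -0.065 to 0.025 for *Map1b*, -0.11 to 0.022 for *Camk2a*, -0.051 to 0.014 for *App*, -0.067 to 0.025 for *Pclo*, -0.025 to 0.061 for *Nf1*, -0.094 to 0.074 for *Pcdh10*, -0.00298 to 0.10 for *Sod1* and -0.13 to 0.011 for *Kif1a*. In the interaction they were -0.058 to 0.027 for *Map1b*, -0.24 to 0.013 for *Camk2a*, -0.094 to 0.0039 for *Pclo*, -0.037 to 0.041 for *Ank2*, -0.059 to 0.16 for *Pcdh10* and -0.016 to 0.12 for *Kif1a*.

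With 3 animals a group and 17150820 to 20040482 reads counted per library, the intervals of most targets spanned 0. No paired analysis was possible because each animal number occurs once and no label ties animals across groups.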
